A study of Mus musculus with 8 samples.

Results

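Annexins are proteins that attach to negatively charged membrane phospholipids when calcium rises. Each combines a conserved membrane-binding core, built of repeated domains, with a variable N-terminal tail that binds partners such as S100 proteins. They are known for roles in membrane repair, in vesicle traffic and in linking membranes to the actin skeleton, and several are abundant in fibroblast-like cells. The 9 annexin genes followed here were picked by name, and 7 of them (Anxa1, Anxa2, Anxa3, Anxa4, Anxa5, Anxa6 and Anxa7) had an entry in the deposited table of cluster markers, which holds 3903 gene symbols. Anxa8 and Anxa11 had no entry in any cluster.

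Preadipocytes were isolated from the inguinal white fat of C57BL/6 mice, either wild type (WT) or lacking both HMGN1 and HMGN2 (labelled Hmgn1-/- and Hmgn2-/-, here DKO), 2 proteins that bind nucleosomes. They were grown on collagen and sampled as preadipocytes at day 0 and as differentiating adipocytes at day 6, with 2 cultures for each genotype and day and 8 samples in all. The differentiation medium of the day 6 cultures held insulin, dexamethasone, IBMX, T3 and rosiglitazone, and was followed by a medium with insulin and T3. The loss of the HMGN proteins was present in the mice from which the cells came and was not limited to fat cells, and the study's methods give an age of 8 to 12 weeks for the mice from which preadipocytes were isolated.

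The study asked whether loss of HMGN speeds the browning of white fat cells. The table pools the cells of the 8 samples and compares each of 12 clusters with all other cells. No value below therefore has a replicate, an SD, a genotype or a day of sampling. The study reports that its preadipocyte clusters lay clearly apart from those of differentiating adipocytes, which were sampled later. A difference between clusters can therefore go with the day and its medium, and their part in the values was not tested. Cells per cluster and reads per cell are unknown from the table. An entry gives a deposited log2 fold change, with a pseudocount of 1, and the percent of cells in which the gene was detected inside and outside the cluster. An entry is called where its deposited adjusted p is below 0.05. This p treats cells as replicates, and the clusters were built from the expression of the same cells, so a call sorts entries and is no test. A gene is listed for a cluster only past minimums of fold change (0.25), of detection and of p, so an absent entry does not stand for 0.

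Clusters are given by number and by their leading genes. Markers of proliferating cells (Mki67 and Top2a) were called higher in clusters 5, 6 and 9. Adipocyte markers (Fabp4, Adipoq, Plin1 and Car3) were all called higher in clusters 4 and 11, and Fabp4, Plin1 and Car3 also in clusters 6 and 8, where Adipoq had no entry. The immune, endothelial and glial markers looked up had 0 entries. The study's methods say that cells of these kinds were taken out and the rest clustered again, and whether any were left was not tested. Cluster 4, with 9.59% of the cells, and cluster 10, with 3.22%, stood apart by detection. Median detection of the listed genes was 10.8% inside cluster 4 and 63.0% outside it, and 8.1% inside and 62.4% outside cluster 10. Annexin counts are therefore given with and without these clusters.

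The 7 listed annexins had 49 entries, 20 higher and 29 lower in their cluster. Of these, 15 were called higher and 15 called lower, against a background of 27.7% called higher and 28.5% called lower among the 13337 entries of the table. Without clusters 4 and 10, 38 annexin entries were left, 10 called higher and 9 called lower, against 28.3% called higher and 17.7% called lower among the 10547 entries of the other clusters. The median absolute log2 fold change was 0.56 over the annexin entries and 0.42 over all entries. Anxa1, Anxa2, Anxa3 and Anxa5 had 39 of the 49 entries, and the pattern of the family rests on these 4 genes.

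**Figure D1:**
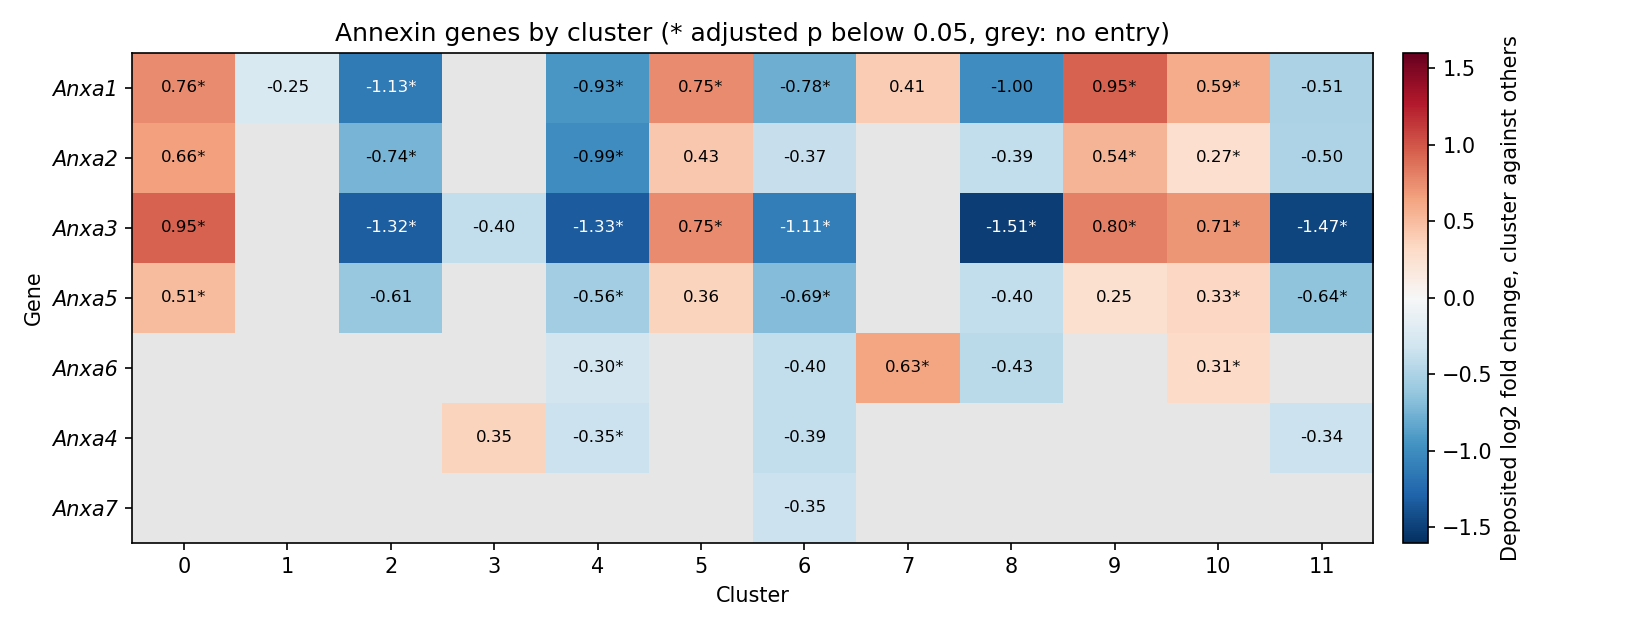
Deposited log2 fold change (colour and number) of the 7 listed annexin genes (y axis) in clusters 0 to 11 (x axis), each against all other cells. An asterisk marks an adjusted p below 0.05 and grey a missing entry. Anxa1, Anxa2, Anxa3 and Anxa5 are red together in clusters 0, 5, 9 and 10 and blue together in clusters 2, 4, 6, 8 and 11.

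Anxa1, Anxa2, Anxa3 and Anxa5 were listed together in 9 clusters and had the same sign in each. They were higher in clusters 0, 5, 9 and 10 and lower in clusters 2, 4, 6, 8 and 11. This order was shared by many genes. Of the 81 other genes listed in the same 9 clusters, 60 (74.1%) had these signs in each cluster, so the shared direction is not particular to annexins.

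Promoters of the 9 members were looked up in RefSeq (GRCm38), which matched 7 (Anxa1, Anxa2, Anxa4, Anxa5, Anxa7, Anxa8 and Anxa11) with 9 start sites. Windows of 250 bases before each start were searched on both strands for a TATA box spelled as TATAAA, for the letters CCAAT of the box of that name, for a GC box spelled as GGGCGG and for an AP-1 site spelled as TGAGTCA. These motifs cannot overlap each other by more than a few bases, and none of the matches in these windows did. Anxa2 is shown because it was the 1 member whose full window held 3 kinds of these motifs. The stretch printed is chr9:69453433-69453619 (GRCm38, plus strand), which lies before the annotated start of the gene in GENCODE M21. Capitals mark 1 GC box and 1 AP-1 site. The TATA box and the other GC boxes of the window lie past that start and are not printed.

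Anxa2 promoter: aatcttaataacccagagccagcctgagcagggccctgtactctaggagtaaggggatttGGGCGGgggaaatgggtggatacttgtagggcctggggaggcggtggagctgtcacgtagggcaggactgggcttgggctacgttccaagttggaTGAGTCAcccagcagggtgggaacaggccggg

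An AP-1 site was found in 4.46% of the 32851 windows of the same length and, among the 9 annexin windows, only in that of Anxa2. A GC box was found in 32.7% of all windows and in those of Anxa2, Anxa7 and Anxa11. A TATA box, in 12.4% of all windows, began 32 bases before the RefSeq start of Anxa1 and 17 bases before that of Anxa2. By the GENCODE M21 starts both of these matches lie inside the gene, as does the whole window of Anxa1. The other annexin windows had no TATA box. The letters CCAAT, in 33.8% of all windows, were in 0 of the 9. The windows of Anxa4, Anxa5 and Anxa8 held none of the 4 motifs. Whether the motifs go with the log2 fold changes was not tested. A match is a string of letters and not a measured binding site.

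Anxa3 varied most. Anxa3 (chromosome 5, 96793339 to 96845966, plus strand, GRCm38, protein-coding) is an annexin with a short tail, and its log2 fold changes ranged over 2.46, from 0.95 in cluster 0 to -1.51 in cluster 8. Clusters 5, 9 and 0 had the widest detection, at 92.7%, 92.2% and 90.0%, and the cells outside each of them had 45.5% to 49.4%. Clusters 3, 10, 6 and 2 followed with 57.2%, 23.5%, 20.7% and 13.3%. Clusters 8, 11 and 4 were lowest, with 4.1%, 3.1% and 2.7% of their cells. Clusters 0, 5 and 9 thus lay within 2.7 points of each other at the top and clusters 4, 8 and 11 within 1.4 points at the bottom, and with no replicates neither trio can be put in order. Median detection of all listed genes was also wider inside the top clusters. It was 80.05% against 59.5% for cluster 0, 80.2% against 52.5% for cluster 5 and 84.5% against 57.75% for cluster 9. In cluster 11, at the bottom for Anxa3, it was likewise wider inside, at 66.4% against 48.7%. The part of this in the Anxa3 values was not tested.

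The 10 entries of Anxa3 held 4 called higher and 5 called lower, against 27.7% and 28.5% of all entries. These were the most calls of any member. They include the higher call of cluster 10 and the lower call of cluster 4. There 31.6% of entries were called higher and 71.0% called lower, respectively. The 1 uncalled entry was that of cluster 3, at -0.40. Over all cells, with the shares of the clusters solved from the detection percents, Anxa3 was detected in 51.9% of cells. Subtracting the listed clusters from this total leaves 72.3% for clusters 1 and 7 together, which have no entry for Anxa3. The same subtraction, applied to the 10 genes listed in every cluster (the check genes), erred by at most 0.26 points for these 2 clusters. The shares were solved from the detection of these same check genes. Errors in them, here and below, can therefore be smaller than those in the annexins. With shares from genes with 2 or more entries, the value for Anxa3 was 72.6%.

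**Figure D2:**
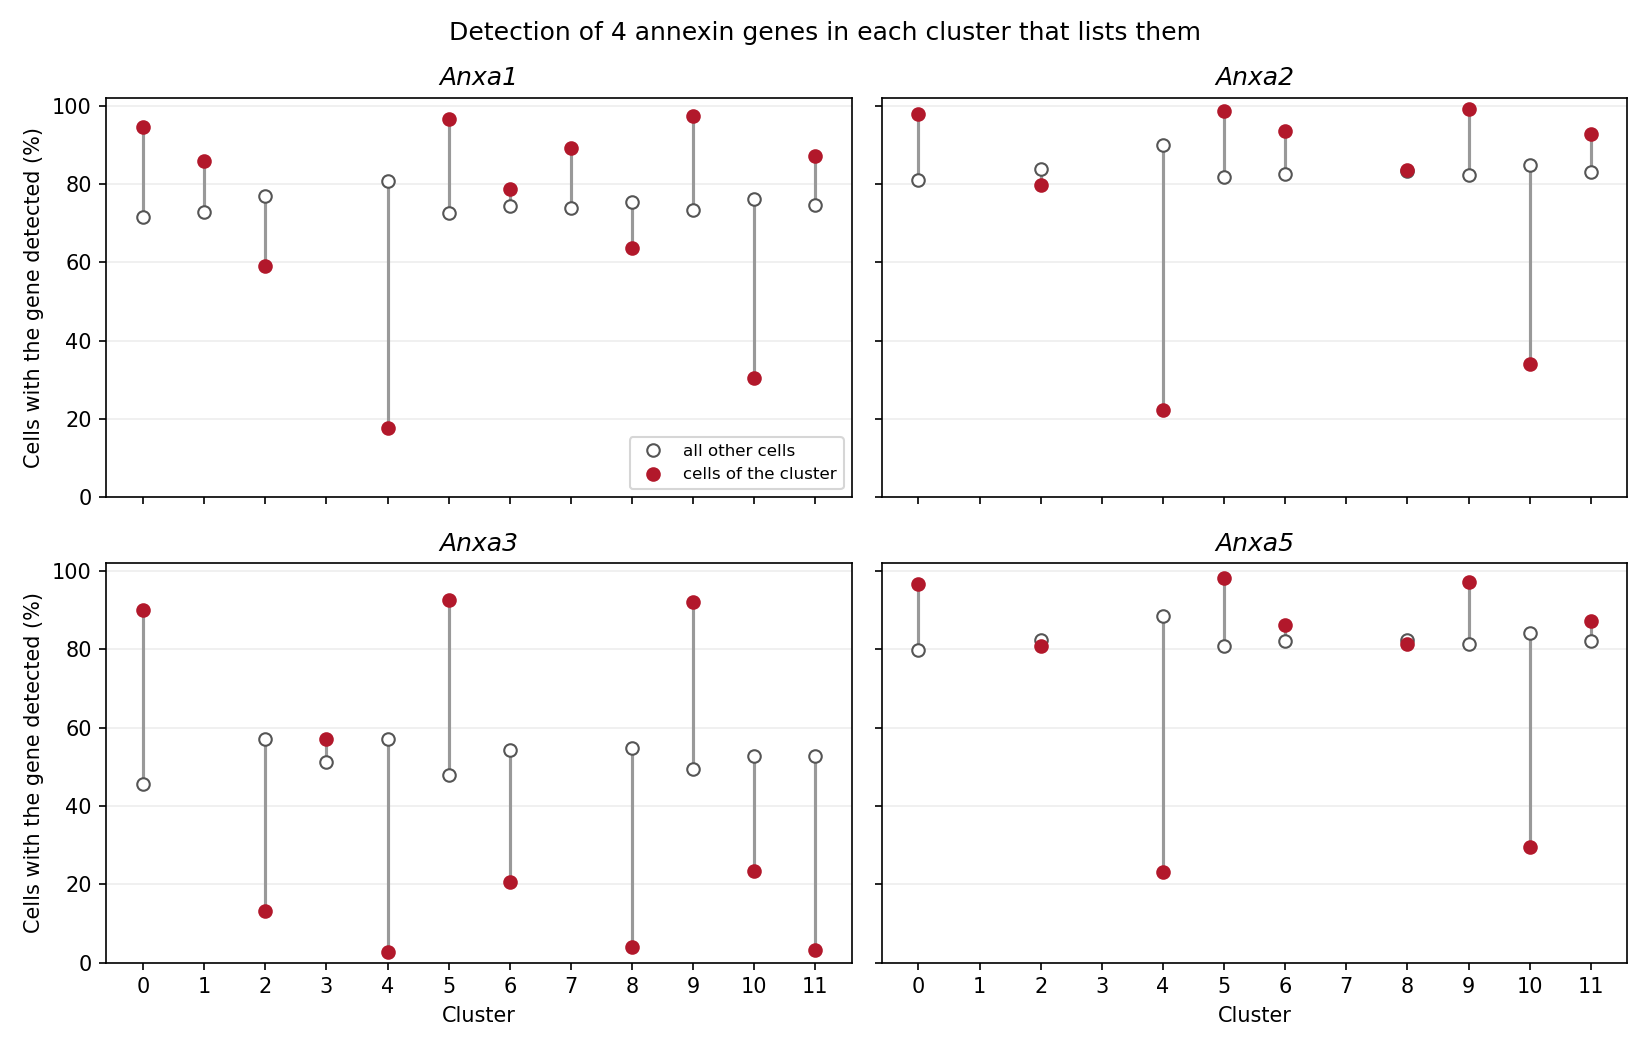
Percent of cells in which Anxa1, Anxa2, Anxa3 and Anxa5 were detected (y axis) in each cluster that lists them (x axis), filled for the cells of the cluster and open for all other cells. Anxa3 spans 2.7% to 92.7% of a cluster's cells, whereas outside clusters 4 and 10 Anxa2 and Anxa5 stay at or above 79.7% and 80.9%.

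Anxa1 followed with a range of 2.08. Anxa1 (chromosome 19, 20373428 to 20390944, minus strand, protein-coding), known as a protein that glucocorticoids induce and that dampens inflammation, was listed in 11 clusters. Its highest log2 fold changes were 0.95 in cluster 9, 0.76 in cluster 0 and 0.75 in cluster 5, all called. Detection there was 97.4%, 94.7% and 96.7%, above the 73.4%, 71.5% and 72.7% outside these clusters. In cluster 7 it was at 0.41, uncalled.

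The lowest value of Anxa1 was -1.13 in cluster 2, called, with 59.0% detection inside and 77.0% outside. Cluster 8 had -1.0, uncalled, with 63.6% inside and 75.5% outside. Cluster 6 had -0.78, called, with detection in 78.8% of its cells and 74.5% outside. Cluster 1 had the smallest absolute value, at -0.25 and uncalled. Here the gene was detected in more cells of the cluster, 85.8%, than elsewhere, 73.0%.

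Cluster 3 was the 1 cluster without an entry for Anxa1. By subtraction Anxa1 was detected in 78.7% of its cells, with a log2 mean relative to all cells of -0.39, which corresponds to a log2 fold change of -0.42 against the rest. For the same cluster, this subtraction erred by at most 0.0071 in the 4 check genes with no absolute log2 fold change above 2, and by up to 0.51 in the other check genes. The value is past the 0.25 minimum for listing. Deposited p-values end just below 0.01, and whether the missing entry missed that limit was not tested.

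Anxa2 and Anxa5 varied less and were detected in most cells. Anxa2 (chromosome 9, 69453620 to 69491795, plus strand, protein-coding) forms a complex with S100a10 that binds plasminogen and its activator at the cell surface. It was highest in cluster 0, at 0.66 with detection in 97.8% of the cells against 81.0%, and in cluster 9, at 0.54 with 99.1% against 82.4%, both called. In cluster 5 it was at 0.43, uncalled. Outside cluster 4 it was called lower in cluster 2 alone, at -0.74, with detection in 79.7% against 83.9%. The entries of clusters 6, 8 and 11, at -0.37, -0.39 and -0.50, were not called. Over all cells Anxa2 was detected in 83.4%, and in clusters 1, 3 and 7, which do not list it, in 91.9% together. The log2 mean of these clusters was 0.0050 relative to all cells. For them the subtraction of log2 means erred by up to 0.081 in the check genes. In the 4 check genes with no absolute log2 fold change above 2 it erred by at most 0.0023.

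Anxa5 (chromosome 3, 36448923 to 36475894, minus strand, protein-coding) binds phosphatidylserine, for which it is used as a stain of dying cells. Of its values above 0 outside cluster 10, only that of cluster 0 was called, at 0.51 with detection in 96.7% of the cells against 79.9%. Clusters 5 and 9 were at 0.36 and 0.25. Its lowest value was -0.69 in cluster 6, called, although 86.1% of the cells there had it detected against 82.0% elsewhere. It was also called lower in cluster 11, at -0.64, and in cluster 4. Clusters 2 and 8, at -0.61 and -0.40, were uncalled, with detection of 80.9% and 81.3%. Clusters 1, 3 and 7 do not list Anxa5 and together had it detected in 91.7% of their cells. Their log2 mean was 0.11 relative to all cells, with the same errors of the subtraction as for Anxa2.

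The remaining annexins had few entries. Anxa6 (chromosome 11, 54979108 to 55033445, minus strand, protein-coding), whose core is doubled and which is known for its part in endosomes and cholesterol transport, was the listed annexin whose highest value lay in cluster 7. There its log2 fold change was 0.63, called, with detection in 74.4% of the cells against 48.7%. Cluster 7, led by Ogn and Hp, listed 2 annexins, 1 of them called higher, against 17.8% of its 540 entries. Anxa6 had uncalled values of -0.40 in cluster 6 and -0.43 in cluster 8, with 33.9% detection in the latter and 51.4% outside it. The 7 clusters without an entry had it detected in 58.0% of their cells together.

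Anxa4 (chromosome 6, 86736840 to 86793584, minus strand, protein-coding) was highest in cluster 3, led by Ccl8 and Mmp2, at 0.35 with detection in 53.0% of the cells against 36.4%, but this entry was not called. In the same cluster Anxa3 was at -0.40, so the only annexins listed there had opposite signs and neither passed. Anxa4 was at -0.39 in cluster 6 and -0.34 in cluster 11, both uncalled. Over all cells it was detected in 38.1%. Anxa7 (chromosome 14, 20455260 to 20480133, minus strand, protein-coding), which binds sorcin, had the entry of cluster 6 alone, at -0.35 and uncalled, with detection in 36.9% of the cells against 45.4%.

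Annexins had opposite signs among the 3 clusters with proliferation markers. In cluster 5 the 4 annexins listed were all higher, 2 of them called (Anxa1 and Anxa3), where 43.0% of the 1057 entries were called higher. In cluster 9 the 4 listed were again higher, 3 of them called, where 32.6% of 938 entries were called higher. In cluster 6 all 7 annexins were listed, all lower, 3 of them called and the median at -0.40, where 22.7% of 1416 entries were called lower. Detection of Anxa3 was 20.7% in cluster 6 and 92.7% and 92.2% in clusters 5 and 9, while that of Mki67 was 92.0% in cluster 6 and 78.6% and 91.2% in clusters 5 and 9. Some markers of other cell types moved with this contrast, and the preadipocyte marker Mmp3 did not. In cluster 6 Car3, Fabp4 and Plin1 were called higher, at 0.91, 0.43 and 0.41, and the preadipocyte markers F3 and Itgb1 called lower, at -1.99 and -0.82. In cluster 5 Car3 and Fabp4 were called lower, at -1.90 and -3.83, and Itgb1 called higher, at 0.61, while in cluster 9 these genes had uncalled values of -1.83, -3.24 and 0.39. Mmp3 had uncalled values of -1.94 in cluster 6 and -1.16 in cluster 9, and no entry in cluster 5. F3 had no entry in clusters 5 and 9, so of the preadipocyte markers only Itgb1 changed sign. The part of these markers in the annexin values was not tested. These 3 clusters each were compared with all other cells and not with each other, so no p exists for this contrast.

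Cluster 0, led by Thbs1 and the actin-binding gene Tagln, listed 4 annexins (Anxa1, Anxa2, Anxa3 and Anxa5), and all 4 were called higher, against 30.7% of its 694 entries. Their median log2 fold change was 0.71, and that of all entries of the cluster was 0.31. Cluster 2, led by A2m and Serpina3n, had the same 4 lower, 3 of them called, against 19.0% of its 1133 entries. The median there was -0.94 for the annexins and -0.37 for all entries. Cluster 8, led by Gsn and Peg3 and also higher in Fabp4, at 1.25, listed 5, all lower, of which Anxa3 alone was called, against 22.9% of 1126 entries, and its medians were -0.43 and -0.37.

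In cluster 11, led by Car3 and Fabp5, fold change and detection parted between the annexins. Anxa3 had a log2 fold change of -1.47 with 3.1% detection inside and 52.7% outside. Anxa1, Anxa2 and Anxa5 had values of -0.51, -0.50 and -0.64, yet were detected in more cells of the cluster than elsewhere, in 87.2% against 74.6%, 92.8% against 83.2% and 87.2% against 82.2%. Of the 5 annexins listed there, Anxa3 and Anxa5 were called lower, against 33.8% of 2487 entries, and none was higher, where 35.1% of the entries were called higher. A lower mean with wider detection occurred in 32.3% of the 1488 lower entries of cluster 11. Whether a lower mean is shared by all cells of a cluster or by some of them cannot be told apart from the pooled values.

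**Figure D3:**
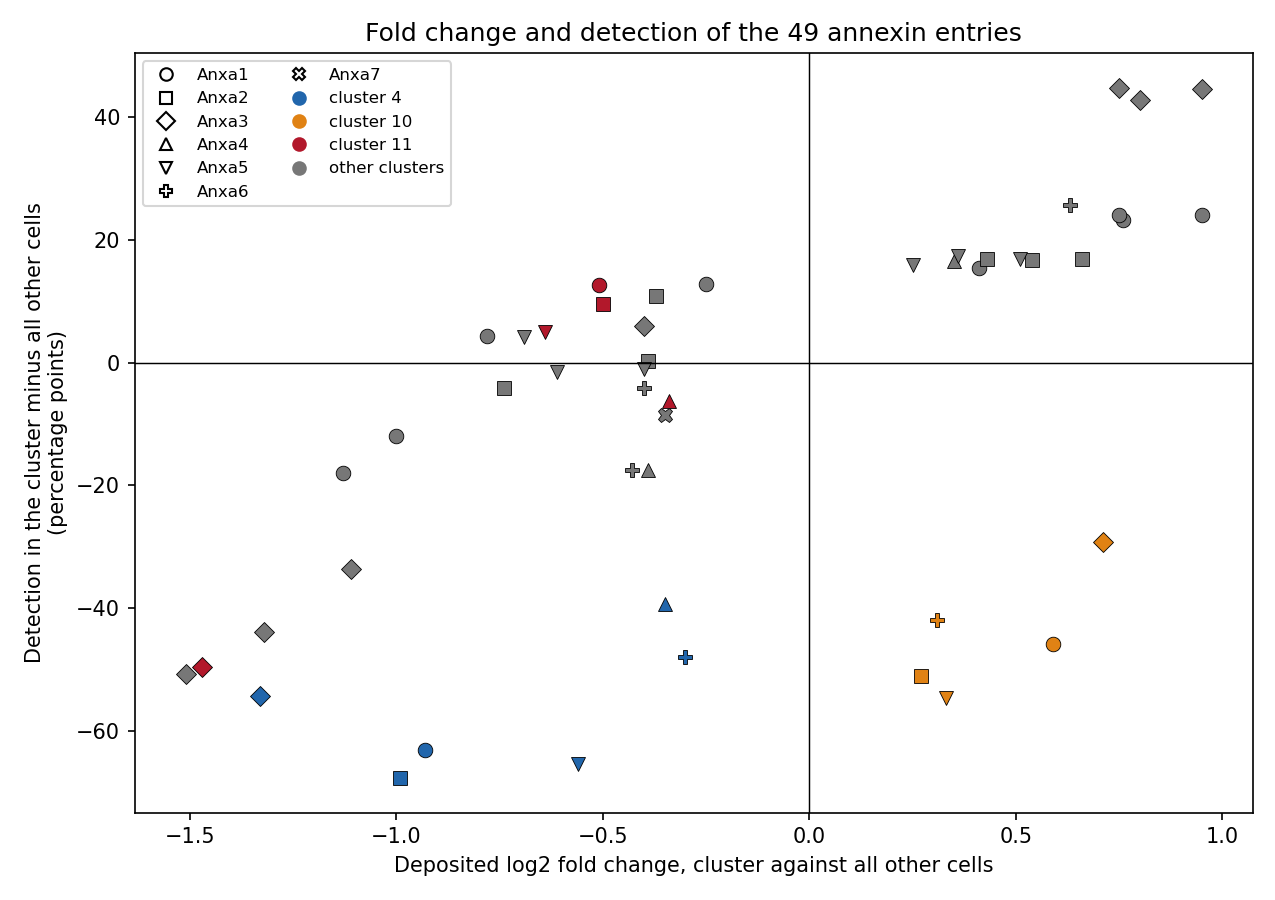
Deposited log2 fold change (x axis) against the difference of detection between the cluster and all other cells in percentage points (y axis) for the 49 annexin entries, with a symbol for each gene and colours for clusters 4, 10 and 11. The 5 entries of cluster 10 lie at the lower right, with higher means and lower detection, and Anxa1, Anxa2 and Anxa5 in cluster 11 lie at the upper left.

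Fold change and detection had opposite signs in 14 of the 49 annexin entries. This was not particular to annexins. Of all lower entries, 49.4% in cluster 6 and 28.7% in cluster 1 were detected in more cells of the cluster. The percents were 21.7% in cluster 3, 14.1% in cluster 8 and 0 in clusters 4 and 10. The 5 entries of cluster 10 (Anxa1, Anxa2, Anxa3, Anxa5 and Anxa6) were all called higher, against 31.6% of its 718 entries, with log2 fold changes of 0.27 to 0.71, and all 5 were detected in fewer cells than elsewhere. Anxa1 was at 0.59 there, with 30.5% detection inside and 76.3% outside. Of all 227 entries called higher in cluster 10, 226 were likewise detected in fewer cells.

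In cluster 4 the 6 annexins listed were all called lower, against 71.0% of its 2072 entries. Anxa2 was at -0.99 with 22.2% of the cells against 89.9%, and Anxa1 at -0.93 with 17.7% against 80.9%. Anxa3 was at -1.33 and Anxa5 at -0.56, while Anxa4 and Anxa6 were at -0.35 and -0.30. Low detection of most genes moved with these values, and its part in them was not tested.

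The log2 fold changes of the 4 annexins were compared over the 9 clusters that list each pair, as a description without a p. The points share their cells, since each cluster belongs to the other cells of the remaining clusters. Pearson's r was 0.971 for Anxa1 and Anxa3, 0.969 for Anxa3 and Anxa5, 0.946 for Anxa1 and Anxa2, 0.939 for Anxa2 and Anxa3, 0.938 for Anxa1 and Anxa5 and 0.930 for Anxa2 and Anxa5. High values were common in this table. The median r of Anxa3 with the 273 genes listed in at least 80% of its clusters was 0.912, that of Anxa1 with 211 such genes was 0.823, and those of Anxa2 and Anxa5 with 212 genes each were 0.925 and 0.929. The r of Anxa2 with Anxa5 thus lay at these medians.

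The genes with the most similar pattern differed between the annexins. For Anxa3 they were Tpm2 (r = 0.999 over 10 clusters), Acta2 (0.998 over 9) and Irx1 (0.998 over 8), of which Tpm2 encodes a tropomyosin and Acta2 the smooth muscle actin. Anxa1 was most like Vps29 (0.996), Capn2 (0.993) and Tbcb (0.986), each over 9 clusters. Anxa2 was most like Gnas (0.987), the actin-binding gene Pfn1 (0.986) and Gnb1 (0.978) over 8 clusters, and Anxa5 like Lrrfip1 (0.990) and Map1b (0.990) over 8 and Igfbp6 (0.989) over 9. Without clusters 4 and 10, 2 of the 3 genes were retained for Anxa3, 1 for Anxa5 and 0 for Anxa1 and Anxa2.

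S100 proteins are small calcium-binding partners of the annexin tails. Of the 5 S100 genes looked up, 4 were listed, S100b having no entry, with 36 entries, 11 called higher and 14 called lower, against the 27.7% and 28.5% of all entries. Without clusters 4 and 10, 7 and 10 of 28 were called, against 28.3% and 17.7%. S100a10, the partner of Anxa2, was called higher in clusters 9 and 10, at 0.65 and 0.63, was called lower in cluster 4, at -0.52, and was at 0.56 in cluster 0, uncalled. It had no entry in clusters 2, 8 and 11, where Anxa2 had values from -0.74 to -0.39. S100a11, which binds Anxa1, was listed in the same 11 clusters as Anxa1. It had the sign of Anxa1 in 10 of them, and in cluster 1 was at 0.30, uncalled, where Anxa1 was at -0.25. Such agreement was common, since 74.1% of the 81 other genes listed in the 9 clusters above had the signs of Anxa1 in each. S100a4 was at -2.17 in cluster 11 and 1.38 in cluster 9, both called, and S100a6 was called lower in cluster 11, at -2.91.

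Other annexin partners were sparse. Of 11 looked up, 5 were listed, with 21 entries, 4 called higher and 11 called lower, where all entries had 27.7% and 28.5%. Without clusters 4 and 10, these were 3 and 7 of 16, where all entries had 28.3% and 17.7%. Ahnak, a large scaffold that binds the complex of Anxa2 and S100a10, was called higher in clusters 0, 1 and 10, at 0.56, 0.73 and 0.36, and called lower in clusters 2, 4, 6, 8 and 11, at -0.99, -1.36, -1.06, -1.04 and -1.18. Sri, the sorcin gene, was called higher in cluster 0, at 0.40, and called lower in clusters 4, 6 and 11, at -0.63, -0.52 and -0.55. The Anxa1 receptor genes Fpr1 and Fpr2 had no entry, and neither did Dysf, Plg, Tsg101 and Trim72. The annexins Anxa9, Anxa10 and Anxa13 also had 0 entries.

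**Figure D4:**
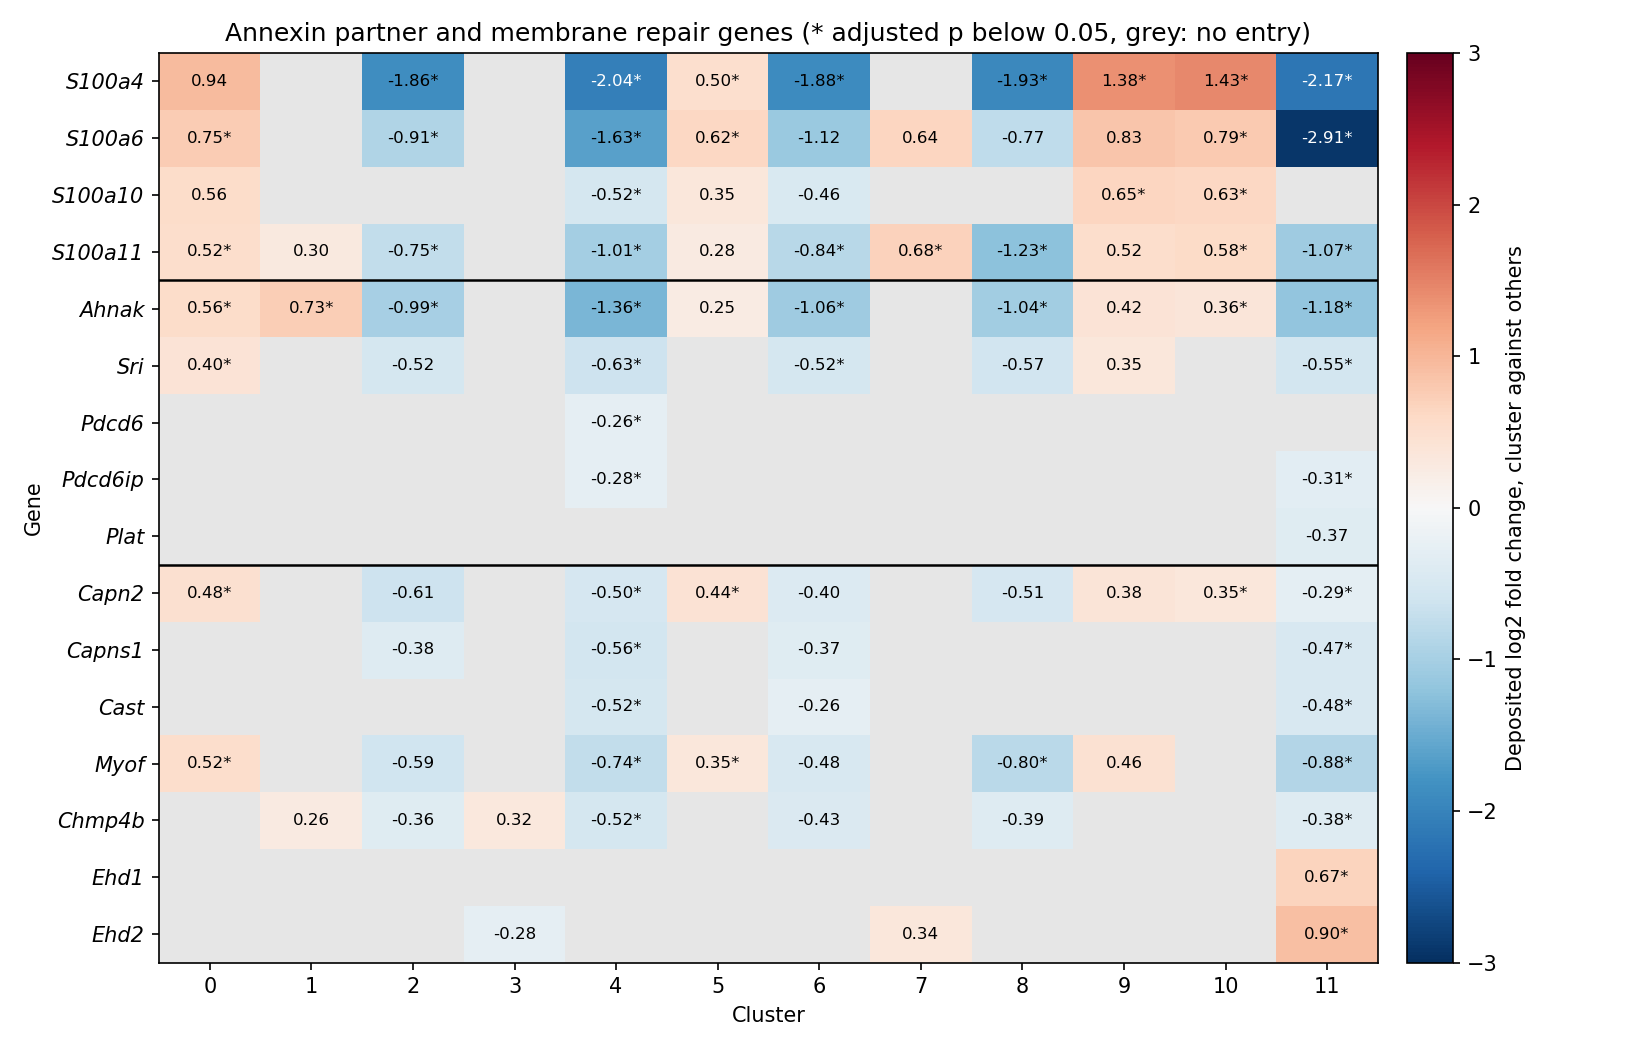
Deposited log2 fold change (colour and number) of the listed S100 partners (top block), other annexin partners (middle block) and membrane repair genes (bottom block) in clusters 0 to 11, with an asterisk at an adjusted p below 0.05 and grey for a missing entry. Ahnak is higher in cluster 1, at 0.73, where Anxa1 was at -0.25, and Ehd1 and Ehd2 are the genes shown that are higher in cluster 11.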

How the data were processed

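Cells of 8 samples (WT or DKO, day 0 or day 6, in duplicate) were profiled with droplet 3' single-cell RNA-seq. Groups and replicate numbers came from the sample titles. Per the study's methods and the submitters' processing notes, the authors mapped reads to mm10 with Cell Ranger 6.0.0, pooled the depth-equalized captures, filtered and log-normalized cells with Seurat, discarded cells of immune, glial or endothelial kind, clustered those left and compared each cluster with all other cells by MAST. The authors deposited log2 fold changes, p-values with their Bonferroni-adjusted values, and the fraction of cells with each gene detected inside and outside a cluster, printed here as percents. Removal of doublets is not given in the sources used here, and none were looked for, since the table holds no cells. Columns of per-sample values left unused number 0.

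From the table, the share of each cluster was solved by least squares from the detection fractions of the 10 genes listed in every cluster, and summed to 99.9%. With these shares w, detection over all cells is the weighted mean of the 2 fractions, and 2 to the power of the log2 fold change F gives a mean relative to all cells, F'/(wF' + 1 - w) with F' that power. Both must close over the 12 clusters, which yields the pooled value of the unlisted ones. The steps were run on simulated data, with detection drawn independently for each cluster and a single cluster left out. Accuracy with several clusters left out, as for most annexins, was not simulated. Similar genes were the 3 of highest Pearson r with each annexin listed in at least 6 clusters, among genes listed in at least 6 clusters and 80% of its clusters. All annexin entries are described, and the partner and repair genes are lists. The members and lists were chosen with earlier results of these data known. Alternatives were other minimums of fold change (0.5) and detection (25%), calls only where detection moves with the fold change, leaving out clusters 4 and 10, ranking by detection and other cluster shares. Rescaling the shares to 100% was an alternative chosen after seeing the data. Gene positions are from GENCODE M21 (GRCm38, the build of mm10). Computation used pandas 2.3.3 and numpy 2.4.6 under Python 3.11.15, with scipy 1.17.1, and drawing used matplotlib 3.10.9.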

Additional observations from a re-analysis of the deposited data

How the results depend on the processing

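No paired analysis was possible because the values used pool the 8 samples. For the same reason no replicate could be left out, and the effect of depth was not measured. Annexin entries called higher numbered 15, and 10 to 15 under the alternatives. Those called lower numbered 15 and stayed within 1.5 times under the other minimums and under the detection rule, but were 9 without clusters 4 and 10, since 6 lay in cluster 4. Ranked by the difference of detection, the highest cluster became cluster 5 for Anxa3 and cluster 5 for Anxa5, in place of cluster 0, and was the same for Anxa1, Anxa2, Anxa4 and Anxa6. For Anxa1 cluster 5 tied with cluster 9, and for Anxa2 with cluster 0. Without clusters 4 and 10 it was the same for these 6 genes. Detection over all cells moved by at most 0.034 points with other shares. Detection in clusters 1 and 7 became 72.6% for Anxa3 when the shares came from any gene with 2 or more entries, and the cause was not tested.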

Other observations

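Genes of membrane repair that act beside annexins were also looked up. Of 10 genes, 7 were listed (Capn2, Capns1, Cast, Myof, Chmp4b, Ehd1 and Ehd2), with 35 entries, 7 called higher and 11 called lower. Of all entries, 27.7% were called higher and 28.5% called lower. Without clusters 4 and 10, 6 and 6 of 29 were called, against 28.3% and 17.7% of all entries there. Myof, a ferlin that fuses membranes, was called higher in clusters 0 and 5, at 0.52 and 0.35, and called lower in cluster 4, at -0.74, in cluster 8, at -0.80 with detection in 10.7% of the cells against 52.1%, and in cluster 11, at -0.88 with 4.0% against 50.3%. Anxa3 was detected in 4.1% and 3.1% of the cells of the same clusters. Capn2, a calpain subunit gene, was called higher in clusters 0, 5 and 10, at 0.48, 0.44 and 0.35.

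In cluster 11, where 33.8% of all entries were called lower and 35.1% called higher, the 7 genes had both directions. Capn2, Capns1, Cast, Myof and Chmp4b were called lower there, at -0.29, -0.47, -0.48, -0.88 and -0.38. Ehd1 and Ehd2, genes of ATPases that shape membranes, the latter at caveolae, were called higher, at 0.67 with detection in 91.2% of the cells against 53.6% and at 0.90 with 94.8% against 50.6%. Outside cluster 11, Ehd1 had no entry and Ehd2 was at -0.28 in cluster 3 and 0.34 in cluster 7, both uncalled. Capn1, Vps4a and Vps4b had no entry.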
